A study of Homo sapiens with 8 samples.

Results

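The transcripts described here belong to 9 genes around the tumour suppressor p53: its regulators MDM2 and MDM4, its targets TP53INP1, TIGAR, ZMAT3 and FAS, and its targets linked to DNA repair, DDB2, XPC and GADD45A. They were chosen by name, as probe sets with a single annotated gene symbol, and each gene was read from its probe set of highest mean log2 intensity over 8 arrays. All 9 were found among the 19775 genes that had such a probe set, with 33 probe sets between them. The arrays were made from RL, an established cell line of human B lymphoma labelled t(14,18)+, which denotes the translocation that joins BCL2 to the immunoglobulin heavy chain locus. Every sample came from multicellular aggregates of lymphoma cells (MALC) grown for 14 days, and pyronin Y, which stains RNA, was used to sort the cells. The quiescent group held 4 samples of cells sorted as pyronin Y dull, and the cycling group held 4 samples of cells sorted as pyronin Y bright. The cells of both groups were stained and sorted, and no unsorted or untreated sample was used here. RL is 1 cell line, and nothing in the labels tells whether the samples came from separate cultures. The p-values therefore measure only how far these samples spread, and that spread may be technical.

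The p53 protein is a transcription factor that is kept low in resting conditions and rises after DNA damage and other stress. MDM2 binds p53 and marks it for destruction, and the MDM2 gene is itself switched on by p53, which closes a feedback loop. MDM4, a relative of MDM2, binds p53 and restrains its activity as a transcription factor. The targets carry out parts of the response, from cell death through the FAS receptor to the recognition of damaged DNA by DDB2 and XPC.

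TP53INP1 and MDM4 were higher and TIGAR was lower in quiescent cells, relative to other transcripts, and these 3 calls held under each of 4 ways of scaling the arrays. Of all genes tested, 2.74% were called higher and 13.8% lower under all 4. MDM2 and DDB2 were called lower only with the arrays centred on their medians, the scaling of the main test. XPC and ZMAT3 were called higher under each of the other scalings and not under that one. GADD45A was called higher only in the deposited values and after quantile normalization. FAS was called under none of the scalings. The values deposited are MAS5 intensities, 1 per probe set, which the authors had scaled to a trimmed mean of 500.1 on every array. Array medians over all non-control probe sets nevertheless ran from 103.4 to 113.4 on quiescent arrays, against 71.9 to 97.9 on cycling arrays. The arrays were therefore centred on this median, in log2, before the main test. Over the genes tested alone, the median log2 intensity overlapped between the groups, at 9.44 to 9.48 on quiescent and 9.39 to 9.52 on cycling arrays. Centring moved every log2 difference by −0.41. Over the 11678 genes tested the centred differences had a median of −0.33, beside 0.08 as deposited and −0.04 after quantile normalization, and each difference below stands against that median.

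The test was limma on log2 intensities, quiescent minus cycling, with p-values adjusted by Benjamini and Hochberg's method over the whole set of tested genes, and a gene was called at an adjusted p under 0.05. In the centred values 2 of the 9 genes were called higher, where 2.80% of all genes tested were, and 3 were called lower, where 32.5% of all genes were. As deposited, 5 were higher and 1 lower, where 12.2% and 15.4% of all genes were. After quantile normalization 5 were higher and 1 lower, where 10.5% and 16.4% of all genes were. With the arrays centred on the median of the genes tested, 4 were higher and 1 lower, where 12.7% and 14.6% of all genes were. The median difference of the 9 genes was −0.05 centred and 0.36 as deposited. The quiescent and cycling arrays did not overlap for 5 of the 9 genes in the centred values, against 31.3% of all genes tested, and for 6 of the 9 as deposited, against 28.6%. All 9 genes passed the intensity filter, and all lay above it on each of the 8 arrays.

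**Figure D1:**
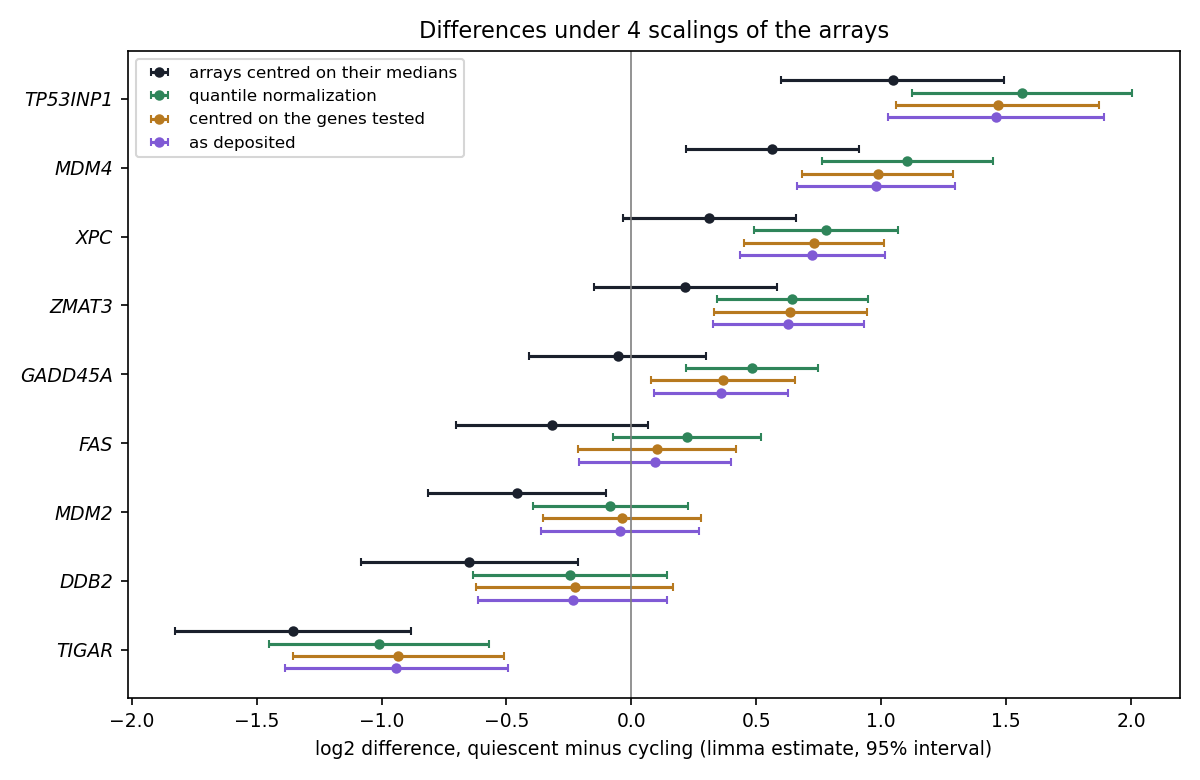
Log2 difference, quiescent minus cycling, of each of the 9 genes (rows) with its 95% interval from limma, under 4 scalings of the arrays (colours). TP53INP1 and MDM4 lie right of 0 and TIGAR left of 0 under all 4 scalings, whereas the intervals of the other 6 genes include 0 under at least 1 scaling.

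Several features of the arrays moved with the groups. The proliferation genes MKI67, TOP2A and CCNB1 were all called lower, with a summed intensity of 1508 to 3420 on quiescent arrays against 11061 to 13800 on cycling arrays. The ACTB controls at the 3′ end exceeded those at the 5′ end, a measure that rises with RNA degradation, by a log2 ratio of 2.57 ± 0.18 on quiescent and 2.02 ± 0.20 on cycling arrays (SD, n = 4 each). The part of RNA quality in the differences described here was not tested. Of 7 B cell markers listed, 6 had a matched probe set and all 6 passed the filter, 4 of them called lower in the centred values, summing to 52402 to 64398 on quiescent and 52622 to 62967 on cycling arrays. T cell, myeloid, fibroblast and epithelial markers summed to at most 444 on quiescent and 434 on cycling arrays for any of these cell types, and no marker was listed at 0. In sorted populations such as these, fewer cells that carry a transcript and less of it per cell cannot be told apart. The sort itself picked quiescent cells by their low RNA content, and an intensity is not an amount per cell.

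**Figure D2:**
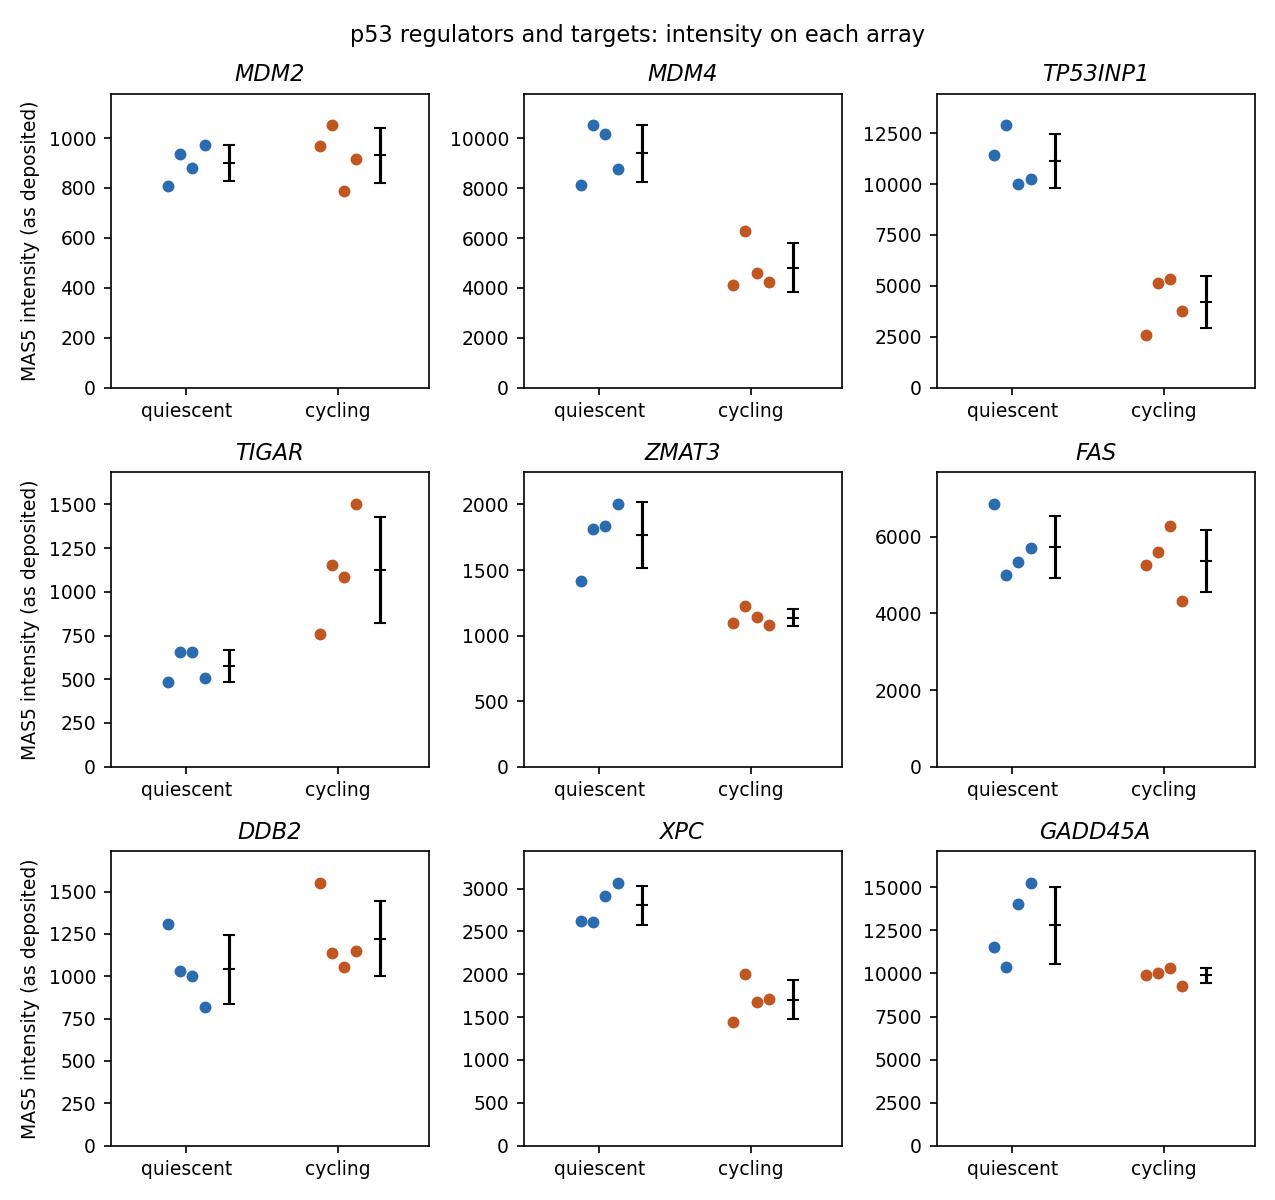
Deposited MAS5 intensity (linear axis from 0) of each of the 9 genes on the 4 quiescent and 4 cycling arrays (points), with the mean and SD of each group (bars). The groups are apart for MDM4, TP53INP1, TIGAR, ZMAT3, XPC and GADD45A and overlap for MDM2, FAS and DDB2.

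Among the regulators, MDM4 was higher in quiescent cells and its relative MDM2 was not. MDM4 measured 8126, 10535, 10158 and 8753 on quiescent arrays 1 to 4, against 4123, 6265, 4617 and 4246 on cycling arrays 1 to 4. Every quiescent array lay above every cycling array, and the highest cycling array was number 2. Its mean was 9393 ± 1141 on quiescent and 4813 ± 991 on cycling arrays (SD, n = 4 each). MDM4 rose by 0.56 on the log2 scale centred (SE 0.17, limma adjusted p = 0.0126), and by 0.98 as deposited (limma adjusted p = 0.000416), which is 1.97-fold. Without quiescent replicate 3 the centred call was lost, with a difference of 0.50 and a limma adjusted p of 0.0547. The brightest MDM4 probe set carries the suffix _x_at, which marks probes that may bind other transcripts. Of the 5 other MDM4 probe sets, 4 were also called higher when all 27307 probe sets above the filter were tested, of which 4.26% were called higher and 23.8% lower. Their differences ran from 0.57 to 0.62 centred. The dimmest, with a mean intensity of 191, was not called, at 0.04.

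MDM2 measured 807, 936, 880 and 973 on quiescent arrays 1 to 4, against 968, 1052, 788 and 915 on cycling arrays 1 to 4. The groups overlapped as deposited, with a mean of 899 ± 72.1 on quiescent and 931 ± 111 on cycling arrays (SD, n = 4 each). Once centred, every quiescent array lay below every cycling array, at 2.91 to 3.11 against 3.43 to 3.61 in log2. In the centred values MDM2 fell by 0.46 on the log2 scale (SE 0.17, limma adjusted p = 0.0422), at percentile 40.4 of the differences of all genes tested. As deposited it differed by −0.05 (limma adjusted p = 0.844, 95% interval −0.36 to 0.27) and was not called. Nor was it called after quantile normalization (−0.08, limma adjusted p = 0.716) or centred on the genes tested (−0.04, limma adjusted p = 0.873). The call was also lost in the centred values without any single array other than cycling replicate 2, with limma adjusted p-values of 0.0605 to 0.112. MDM2 had 10 probe sets, 8 of them above the filter, and their centred differences ran from −0.49 to 1.08. Only the brightest was called in the centred values. As deposited, 2 dim ones with mean intensities of 219 and 143 were called higher, by 0.85 and 1.49, and neither was called after quantile normalization.

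Because both genes are read on the same array, the log2 ratio of MDM4 to MDM2 does not depend on a factor applied to the whole array. It ran from 3.17 to 3.53 on quiescent arrays and from 2.09 to 2.57 on cycling arrays, a difference of 1.02 in the group means, or 2.03-fold. The ratio was thus higher on every quiescent array than on any cycling array. This ratio and the others below were chosen after the values were seen and are given without a test. Such a ratio shows that the brightest probe sets of MDM4 and MDM2 changed unequally and not which of them changed. It was not taken with the other MDM2 probe sets, whose centred differences ran from −0.49 to 1.08, beside 0.56 for MDM4.

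The sequences below are the 250 bases before a transcription start, 5′ to 3′ on the gene's strand, from RefSeq on GRCh38.p14. They are shown as examples, chosen after the values were seen. The MDM2 and FAS windows shown carry matches to the p53 response element, and the MDM4 and TIGAR windows carry none. The windows of ZMAT3, DDB2 and XPC carry none either. Whether a match goes with a gene's difference between the groups was not tested. Capitals mark matches to the 20-base p53 response element consensus with at most 3 mismatches and no spacer, a pattern that reads the same on both strands. The MDM2 window lies before 1 of its 2 neighbouring internal starts, at chr12:68808767-68809016 (+). The FAS window, at chr10:88991181-88991430 (+), is the furthest downstream of 3 for this gene, and the other FAS windows held no match. The MDM4 window lies at chr1:204516156-204516405 (+) and the TIGAR window at chr12:4320963-4321212 (+).
MDM2: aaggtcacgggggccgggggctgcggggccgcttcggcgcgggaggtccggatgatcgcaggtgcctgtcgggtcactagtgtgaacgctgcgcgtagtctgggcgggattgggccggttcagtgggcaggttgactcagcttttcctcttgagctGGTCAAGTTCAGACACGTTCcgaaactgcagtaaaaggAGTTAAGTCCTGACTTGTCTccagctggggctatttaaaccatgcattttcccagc
FAS: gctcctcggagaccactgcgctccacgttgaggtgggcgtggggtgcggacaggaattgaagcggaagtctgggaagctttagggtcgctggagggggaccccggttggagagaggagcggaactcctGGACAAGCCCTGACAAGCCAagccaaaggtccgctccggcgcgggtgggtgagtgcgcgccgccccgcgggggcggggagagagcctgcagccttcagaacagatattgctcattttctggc
MDM4: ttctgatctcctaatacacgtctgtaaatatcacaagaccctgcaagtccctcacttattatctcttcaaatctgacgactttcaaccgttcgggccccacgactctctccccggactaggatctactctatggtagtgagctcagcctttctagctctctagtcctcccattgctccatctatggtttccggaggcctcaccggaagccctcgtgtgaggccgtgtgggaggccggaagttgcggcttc
TIGAR: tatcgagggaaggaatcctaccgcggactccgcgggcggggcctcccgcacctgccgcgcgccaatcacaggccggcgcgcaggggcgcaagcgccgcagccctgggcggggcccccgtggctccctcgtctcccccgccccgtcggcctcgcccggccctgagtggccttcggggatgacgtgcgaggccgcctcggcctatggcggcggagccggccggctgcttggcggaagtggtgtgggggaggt
The MDM2 window held 2 matches, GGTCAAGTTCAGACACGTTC with 2 mismatches, which begins 94 bases before the start, and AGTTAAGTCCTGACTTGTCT with 3 mismatches, which begins 56 bases before it. The internal start of MDM2 is known for its p53 response elements. The FAS window held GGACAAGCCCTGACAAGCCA with 2 mismatches, 122 bases before the start. Windows of 7 of the 9 genes were searched, 14 in all since some genes have several starts. Of these, 3 windows of 2 genes, MDM2 and FAS, held a match, since the windows of both internal MDM2 starts cover the same sites. Such a match occurred in 4.36% of the 35116 windows of that length. A match is a description of the letters in that window and does not show that p53 binds there, and the absence of one says nothing about sites elsewhere in a gene.

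Both MDM2 windows before its upstream starts, which overlap, held at the same place the E2F motif TTTGGCGC or TTTCGCGC on either strand, which 0.97% of all windows did, and no other window of the 7 genes held it. The cell cycle motif TTTGAA, searched on both strands, occurred in the MDM4 window, in 1 of 2 ZMAT3 windows and in 2 of 3 FAS windows, which overlap and share it, against 13.3% of all windows. The FOXO motif TGTTTAC occurred in none of the 14 windows and in 2.98% of all windows. No window of TP53INP1 or GADD45A was searched. Whether these genes carry any of these motifs, or a match to the p53 response element, was not tested.

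TP53INP1 showed the largest rise of the 9 genes. It encodes a stress-induced nuclear protein that promotes p53 activity and cell death and takes part in autophagy. TP53INP1 measured 11406, 12897, 10019 and 10236 on quiescent arrays 1 to 4, against 2564, 5130, 5329 and 3769 on cycling arrays 1 to 4. The lowest quiescent array was well above the highest cycling array, and cycling array 1 was the lowest of all. The mean was 11140 ± 1320 on quiescent and 4198 ± 1291 on cycling arrays (SD, n = 4 each). The centred log2 difference was 1.05 (SE 0.21, limma adjusted p = 0.00100), or 2.06-fold, and as deposited it was 1.46 (limma adjusted p = 0.000231), or 2.75-fold. In the centred values it ranked at percentile 99.0 of the differences of all genes tested. Its other 2 probe sets were called higher as well, by 0.97 and 1.05 centred.

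TIGAR went the other way. It encodes a phosphatase that lowers fructose-2,6-bisphosphate and thereby slows glycolysis and favours the pentose phosphate pathway. TIGAR measured 483, 658, 655 and 507 on quiescent arrays 1 to 4, against 760, 1156, 1087 and 1502 on cycling arrays 1 to 4. Every quiescent array lay below every cycling array. The mean was 576 ± 93.8 on quiescent and 1126 ± 304 on cycling arrays (SD, n = 4 each). TIGAR fell by 1.35 on the log2 scale centred (SE 0.22, limma adjusted p = 0.000194) and by 0.94 as deposited (limma adjusted p = 0.00478). It had 1 probe set, so no second one was there to compare. The within-array log2 ratio of TP53INP1 to TIGAR ran from 3.93 to 4.56 on quiescent arrays and from 1.33 to 2.29 on cycling arrays, a 5.27-fold difference in the group means.

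ZMAT3 encodes a zinc finger protein that binds RNA, and its call depended on the scaling. It measured 1417, 1811, 1839 and 2004 on quiescent arrays 1 to 4, against 1099, 1225, 1139 and 1080 on cycling arrays 1 to 4. The groups did not overlap as deposited and overlapped once centred. The log2 difference was 0.22 centred (SE 0.17, limma adjusted p = 0.367), 0.63 as deposited (limma adjusted p = 0.00523) and 0.64 after quantile normalization (limma adjusted p = 0.00455). Its other 4 probe sets were not called in the centred values, as deposited or after quantile normalization, with differences of 0.25 to 0.46 as deposited, and the mean of all 5 gave −0.01 centred.

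FAS, the death receptor on the cell surface, did not pass the test under any scaling. It measured 6858, 4996, 5354 and 5704 on quiescent arrays 1 to 4, against 5254, 5604, 6281 and 4333 on cycling arrays 1 to 4. The groups overlapped, with a mean of 5728 ± 807 on quiescent and 5368 ± 811 on cycling arrays (SD, n = 4 each). The log2 difference was −0.32 centred (limma adjusted p = 0.197, 95% interval −0.70 to 0.07) and had the opposite sign as deposited, at 0.10 (limma adjusted p = 0.642, 95% interval −0.21 to 0.40). None of its 4 other probe sets was called either, with centred differences of −0.46 to 0.25.

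**Figure D3:**
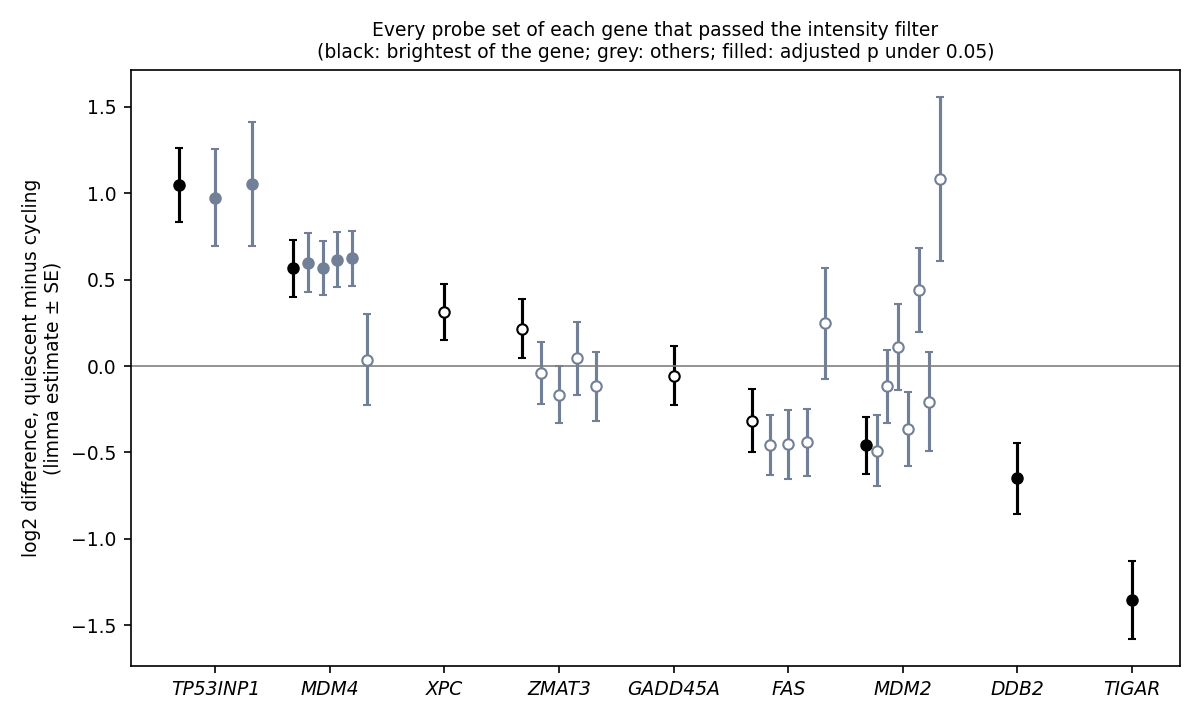
Centred log2 difference, quiescent minus cycling, with its SE from limma, for each of the probe sets of the 9 genes that passed the intensity filter (black the brightest of a gene, grey the others, filled where called). The TP53INP1 probe sets and 5 of 6 MDM4 probe sets lie together above 0, whereas those of MDM2 spread from −0.49 to 1.08.

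The 2 genes for recognising damaged DNA were called under different scalings, and never both under the same one. XPC, which finds distorted DNA at the start of nucleotide excision repair, measured 2620, 2613, 2917 and 3065 on quiescent arrays 1 to 4, against 1439, 2000, 1675 and 1708 on cycling arrays 1 to 4. Every quiescent array lay above every cycling array, both centred and as deposited. The mean was 2804 ± 224 on quiescent and 1705 ± 230 on cycling arrays (SD, n = 4 each). XPC differed by 0.31 on the log2 scale centred (SE 0.16, limma adjusted p = 0.158), by 0.72 as deposited (limma adjusted p = 0.00167) and by 0.78 after quantile normalization (limma adjusted p = 0.00106). It was thus called higher under all scalings tried except centring on the array medians.

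DDB2, which binds ultraviolet lesions in chromatin and brings XPC to them, measured 1311, 1030, 1004 and 818 on quiescent arrays 1 to 4, against 1550, 1138, 1053 and 1147 on cycling arrays 1 to 4. The groups overlapped, with a mean of 1041 ± 204 on quiescent and 1222 ± 223 on cycling arrays (SD, n = 4 each). DDB2 fell by 0.65 on the log2 scale centred (SE 0.21, limma adjusted p = 0.0201), at percentile 28.1 of the differences of all genes tested. As deposited it differed by −0.24 (limma adjusted p = 0.341, 95% interval −0.61 to 0.14) and was not called. Nor was it called after quantile normalization (−0.25, limma adjusted p = 0.356) or centred on the genes tested (−0.23, limma adjusted p = 0.375). The centred call was lost without quiescent replicate 4 (limma adjusted p = 0.0868) and without cycling replicate 1 (limma adjusted p = 0.0738). The within-array log2 ratio of XPC to DDB2 ran from 1.00 to 1.91 on quiescent and from −0.11 to 0.81 on cycling arrays, a 1.94-fold difference in the group means. DDB2 and XPC each had 1 probe set.

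GADD45A encodes a stress protein that binds PCNA and acts in growth arrest and repair, and its sign depended on the scaling. It measured 11517, 10388, 14063 and 15253 on quiescent arrays 1 to 4, against 9907, 10045, 10300 and 9282 on cycling arrays 1 to 4. The lowest quiescent array lay just above the highest cycling array, and the quiescent arrays were more spread. The log2 difference was −0.05 centred (SE 0.17, limma adjusted p = 0.836) and had the opposite sign in the other scalings, with 0.36 as deposited (limma adjusted p = 0.0470) and 0.48 after quantile normalization (limma adjusted p = 0.0107). With the arrays centred on the median of the genes tested it was 0.37 and not called (limma adjusted p = 0.0575).

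For each of the 9 genes the genes with the most similar pattern were found by the root mean square difference between centred log2 profiles over the 8 arrays, after subtraction of each gene's own mean. MDM4 was closest to PCMTD1 (0.07) and BMS1P1 (0.08), and MDM2 to PAXIP1 (0.05) and ZNF587B (0.07). TP53INP1 was closest to LRCH1 (0.14) and RAB13 (0.18), and TIGAR to LIMA1 (0.14) and POLR1B (0.18). ZMAT3 was closest to TRRAP (0.06) and SLK (0.07), FAS to DVL3 (0.08) and NACA (0.08), and DDB2 to DYM (0.06) and TMEM14C (0.07). XPC was closest to HLA-DQB1 (0.05) and FMNL3 (0.06), and GADD45A to HDAC4 (0.07) and GAPDH (0.09). Among the 9 genes themselves XPC and ZMAT3 had the most similar profiles (0.14) and TIGAR and TP53INP1 the least similar (1.24).

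Other genes that p53 is known to switch on showed, as a list, no direction that held across the scalings. Of 36 listed, 27 were tested. In the centred values 1 was higher, 8 were lower and 18 passed neither way, with a median log2 difference of −0.36 beside −0.33 for all genes. As deposited, 5 were higher and 2 lower, with a median of 0.05 beside 0.08. The share lower was 29.6% centred, beside 32.5% of all genes, and 7.41% as deposited, beside 15.4%. The share higher was 3.70% centred, beside 2.80% of all genes, and 18.5% as deposited, beside 12.2%. It was 22.2% after quantile normalization, beside 10.5%, and 22.2% centred on the genes tested, beside 12.7%. The share lower in these was 7.41% each, beside 16.4% and 14.6%. At an unadjusted limma p under 0.05 there were 1 higher and 12 lower centred, where 5102 of all 11678 genes tested passed in either direction. Without quiescent replicate 4, or without cycling replicate 3, 5 were lower in the centred values. Over all genes tested 3059 and 2938 were lower in these fits, against 3795 with all arrays. TNFRSF10C, a decoy receptor for the death ligand TRAIL, was the 1 called higher under all 4 scalings, at 303 ± 16.2 on quiescent and 141 ± 29.4 on cycling arrays (SD, n = 4 each). Without any one of the 4 quiescent arrays, or without cycling replicate 2 or 4, 0 genes of this list were called higher in the centred values by limma. FBXO22, part of a ubiquitin ligase, and RPS27L, a ribosomal protein paralog, were lower under all 4. FBXO22 measured 772 ± 66.9 on quiescent and 1166 ± 157 on cycling arrays, and RPS27L 4308 ± 667 on quiescent and 6359 ± 1322 on cycling arrays (SD, n = 4 each). TRIAP1, an inhibitor of apoptosis, and the death effector BAX were lower only in the centred values, with −0.72 and −0.71. CCNG1, a cyclin that regulates MDM2, and SESN1, a stress protein that restrains mTOR, were called higher as deposited, by 0.53 and 0.71, and had 0.12 and 0.29 centred. PPM1D, the phosphatase that turns off p53 signalling, differed by −0.36 centred and 0.05 as deposited and was not called. CDKN1A, which encodes the CDK inhibitor p21, was not called centred (limma adjusted p = 0.999) or as deposited (limma adjusted p = 0.122). BBC3 was not analysed here.

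Of 33 other listed regulators of p53, 29 were tested. Of these, 1 was higher, 8 were lower and 20 passed neither way in the centred values, with a median of −0.37. The share lower was 27.6%, beside 32.5% of all genes, and the share higher 3.45%, beside 2.80%. At an unadjusted limma p under 0.05 there were 1 higher and 13 lower, where 5102 of all 11678 genes tested passed in either direction. Without cycling replicate 2, 14 were lower, and over all genes tested 4543 were, against 3795 with all arrays. As deposited 2 were higher and 5 lower, with a median of 0.04. These are 6.90% of the list higher and 17.2% lower, beside 12.2% and 15.4% of all genes. The kinase ATM, which phosphorylates p53 and MDM2 after DNA breaks, was higher under all 4 scalings, by 0.69 centred. The checkpoint kinases CHEK1 and CHEK2 had log2 differences of −3.07 and −1.10 centred, and USP2, a deubiquitinase that stabilises MDM2, fell by 1.76. These 3, together with the acetyltransferase KAT5, were lower under all 4 scalings. USP7, which removes ubiquitin from p53 and MDM2, and the p53-binding repair protein TP53BP1 were not called in the centred values, as deposited or after quantile normalization, with −0.41 and −0.002 centred.

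Of 35 listed nucleotide excision repair genes other than DDB2 and XPC, 33 were tested, and 20 were lower and 0 higher in the centred values by limma, with a median of −0.70 beside −0.33 for all genes. The 20 are 60.6% of the list, beside 32.5% of all genes called lower. At an unadjusted limma p under 0.05 there were 0 higher and 23 lower, where 5102 of all 11678 genes tested passed in either direction. As deposited 8 were lower and 1, the centrin CETN2, was higher, with a median of −0.29 beside 0.08, and the 8 are 24.2% of the list beside 15.4% of all genes. Under all 4 scalings 8 of the 33 were lower, where 13.8% of all genes tested were. They were DDB1, RBX1, ERCC8, MNAT1, RPA3, PCNA, POLD1 and LIG1. DDB1, the partner of DDB2, measured 2143 ± 69.8 on quiescent and 2875 ± 140 on cycling arrays (SD, n = 4 each) and fell by 0.84 on the log2 scale centred (SE 0.17, limma adjusted p = 0.000961). RAD23B, the partner of XPC, fell by 0.74 centred and was not called as deposited (−0.33, limma adjusted p = 0.0731). PCNA, LIG1 and RPA3, which are only some of the listed genes that also serve DNA replication, were lower, with −2.15, −2.76 and −1.52 centred. The proliferation markers given above were lower as well, and their part in the repair list's count was not tested.

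Of 22 genes around FAS, GADD45A, ZMAT3 and TIGAR, 15 were tested, and 0 were higher and 3 lower in the centred values by limma, with a median of −0.32. The 3 are 20% of the list, beside 32.5% of all genes called lower. Without cycling replicate 2, 6 were lower, and over all genes tested 4543 were, against 3795 with all arrays. At an unadjusted limma p under 0.05 there were 0 higher and 5 lower, where 5102 of all 11678 genes tested passed in either direction. As deposited 1 was higher and 1 lower, each 6.67% of the list, beside 12.2% and 15.4% of all genes. The adaptor FADD, which FAS recruits, fell by 0.87 centred and was not called as deposited. BID, which carries the signal of caspase-8 to mitochondria, fell by 1.73 centred and was lower under all 4 scalings. CASP8 itself differed by 0.30 centred and was not called. GADD45B, a relative of GADD45A, differed by −0.10 centred, and PFKFB3, which makes the metabolite that TIGAR removes, by −0.04, and both were called higher after quantile normalization.

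**Figure D4:**
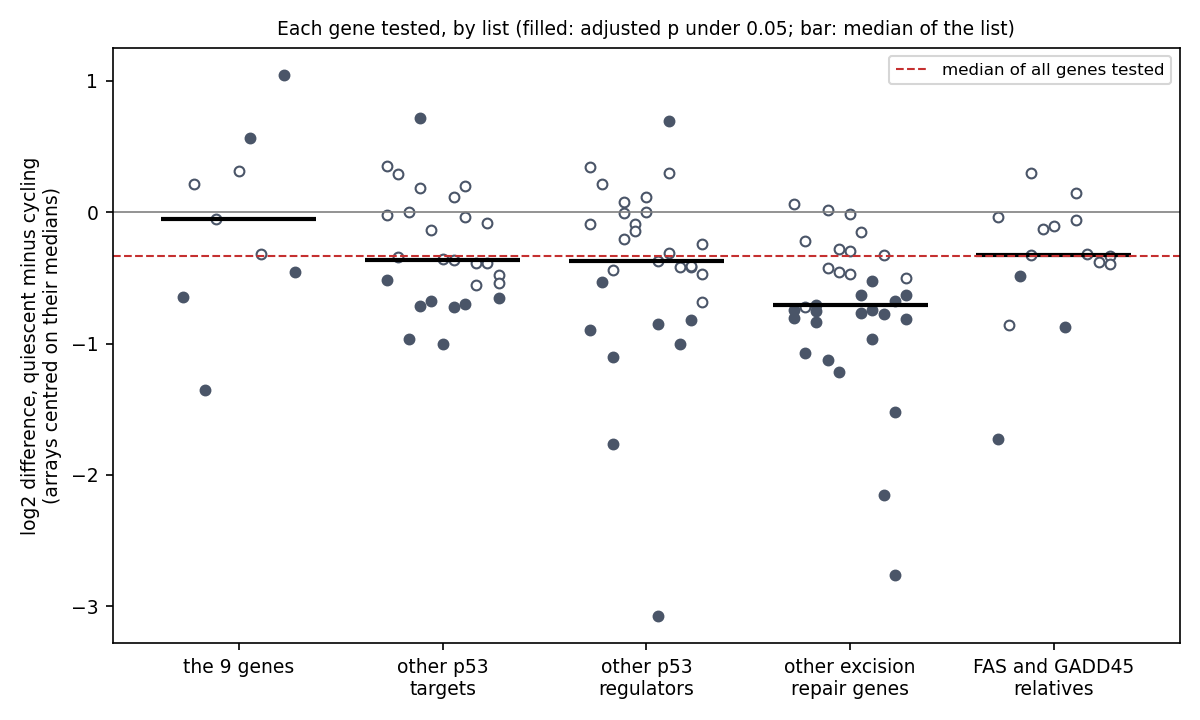
Centred log2 difference, quiescent minus cycling, of each tested gene (points, filled where called) among the 9 genes and in 4 lists of related genes, with the median of each list (bars) and of all genes tested (dashed line, −0.33). The median of the excision repair list is −0.70, and those of the other 3 lists lie between −0.37 and −0.32.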

How the data were processed

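The values deposited by the authors are MAS5 intensities on a linear scale, per the submitters' processing notes and the values themselves, with no MAS5 version given in the sources used here. Trizol was used to extract RNA, and 30 ng went into one-cycle Affymetrix labelling with biotin, per the labels' protocols. Detection calls were not used here, which leaves background and dim signal unseparated.

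Intensities under 1 were set to 1, taken to log2 and centred on the median of each array's non-control probe sets, since these medians differed by 0.66. Gene names came from GEO's platform annotation, updated by Entrez identifier to RefSeq symbols of GRCh38.p14, which matched 41043 of 41097 with a single symbol and changed 0. A further 1801 with several symbols were not named. Genes with a mean intensity under 83.3, the median of all probe sets, were left out, which removed 8097 of 19775 genes and kept 11678. The comparison used limma 3.58.1 (lmFit, then eBayes with trend and robust options) under R 4.3.3, had no covariates and was adjusted over all genes tested, and again over 27307 probe sets. The fit was tested on simulated data in which an array's offset was the same for every probe set. That test cannot tell which scaling suits these arrays. Python 3.11.15 with pandas 2.3.3 searched the promoter windows, and matplotlib 3.10.9 drew the plots.

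The 9 genes and the 4 lists were chosen with earlier results of these data known. Named from each list are the called genes with the largest change, up to 3 per direction, whose groups do not overlap, and 15 fixed genes whatever their result. Also named are the 2 genes closest in pattern to each of the 9. KAT5, CETN2 and the remaining excision repair genes called under all scalings were named after their values were seen. Alternatives were other scalings, filters, a pseudocount of 32, the mean of a gene's probe sets, sample number as a block, array weights, plain eBayes and leaving out each array.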

Additional observations from a re-analysis of the deposited data

Results flagged for a closer look

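In the centred values of MDM2, 1 quiescent array stood apart from the other quiescent arrays. Quiescent array 1 had a centred log2 value of 2.91, and the other quiescent arrays had 3.09 to 3.11, so that the gap to the nearest was 0.909 of the whole range of the group. As deposited the corresponding share was 0.463. About 1 in 20 groups of this size passes such a limit by chance, and 18 groups were looked at. Without quiescent replicate 1 the centred MDM2 difference was −0.41 (limma adjusted p = 0.103).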

How the results depend on the processing

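Of 18 alternatives tried for each of the 9 genes, TP53INP1 was called higher and TIGAR lower in all 18, MDM4 was called higher in 17, DDB2 lower in 13 and MDM2 lower in 5. XPC was called higher in 4, ZMAT3 in 3, GADD45A in 2 and FAS in 0. Only 3 of the 18 changed the scaling, and the rest kept the arrays centred on their medians, so these counts mostly reflect that centring. Under those 3 scalings DDB2 and MDM2 were not called, whereas XPC and ZMAT3 were called higher under each. Centring adds the same shift to every gene, and the cause of the other changes was not tested. Signs turned for FAS (0.10 as deposited, 0.22 quantile, 0.10 centred on the genes tested), GADD45A (0.36, 0.48 and 0.37 in the same order, 0.0511 with 32 added, −0.137 to 0.0424 without each replicate in turn, above 0 without quiescent replicate 2 or cycling replicate 3) and ZMAT3 (−0.0125 with the mean of its probe sets). Over all genes, 327 were higher and 3795 lower centred, so that 7.93% of calls were higher, 1430 and 1802 as deposited (44.2%), 1230 and 1913 by quantile (39.1%) and 1480 and 1704 centred on the genes tested (46.5%). The same 3 scalings gave 5, 5 and 4 of the 9 genes higher and 1, 1 and 1 lower, and other p53 targets 5, 6 and 6 higher and 2, 2 and 2 lower. They gave other p53 regulators 5, 4 and 5 lower, excision repair genes 8, 9 and 8 lower, and FAS and GADD45 relatives 1, 3 and 1 higher and 1, 1 and 1 lower. Other p53 targets lower were 5 with 32 added, 5 with no filter and 13 with array weights, and 0 were higher with no filter, with the 75th percentile filter or with the mean of probe sets. Array weights gave 14 other p53 regulators lower, and 4926 of all genes lower. Without each replicate in turn, 221 to 357 genes were higher and 2938 to 4543 lower, and of the 9 genes 3 to 5 were called, 1 to 2 higher and 1 to 3 lower. The 3 were reached without quiescent replicate 3 (1 higher, 2 lower), without quiescent replicate 4 and without cycling replicate 1 (2 higher, 1 lower each). Other p53 targets ranged over 0 to 1 higher and 5 to 11 lower, other p53 regulators over 7 to 14 lower, excision repair genes over 16 to 22 lower, and FAS and GADD45 relatives over 0 to 0 higher and 2 to 6 lower. Without cycling replicate 2, 14 other regulators and 6 FAS and GADD45 relatives were lower, and 5 other targets were lower without quiescent replicate 4 or cycling replicate 3.

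Same-numbered samples of the 2 groups deviated together with correlations of 0.04 to 0.34 across genes, and 2 of 4 quiescent and 3 of 4 cycling arrays correlated best with their own number. The labels do not say that a shared number marks a shared culture, so the main test did not pair the samples. These correlations do not settle whether they are paired. With the sample number as a replicate block, 465 genes were higher and 4443 lower, 2 of the 9 genes were higher and 3 lower, and 5 FAS and GADD45 relatives were lower. Signal near background limits the dim probe sets of MDM2, MDM4 and TP53INP1, and 4 arrays a group limit the precision of all values.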
